A study of Mus musculus with 5 samples.

Results

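Schwann cells and the cardiac nerves were followed in atrial RNA through 8 genes: Sox10, Cdh19, S100b, Mbp and Kcna1 for glia and myelinated nerve, and Dbh, Th and Uchl1 for neurons. They were 8 of 57186 genes in the tables and 8 of 8 passed the expression filter. Known markers made up the set, except that Kcna1 and Cdh19 were chosen by their measured levels in het and WT libraries. Their values are therefore a description, with no test. The groups were atria of mice carrying MRC2 E990G on one allele (het, replicates 5, 6 and 7, 3 libraries) and atria of wild-type mice (WT, replicates 7 and 8, 2 libraries). All 5 libraries carry the label batch 2. The series describes 7 het and 8 WT animals aged 4 to 10 months, whose whole atria were snap-frozen, and the labels used here give neither strain nor sex. Ddx3y, on the Y chromosome, had 0 to 3 expected counts in het libraries, against 938 in WT 7 and 1 in WT 8. Xist, made from the inactive X chromosome of females, had 13247 to 15280 in het, 22 in WT 7 and 6117 in WT 8. By both genes WT 7 was male and the other libraries female, so WT 7 differs from every het library in sex as well as genotype.

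RNA was sequenced as stranded polyA libraries, with depths between 17784601 (WT 8) and 28353091 (het 7) expected counts. An expected count is the number of reads that RSEM, a program that shares ambiguous reads among transcripts, assigns to a gene. CPM, counts scaled to a common library total, were compared between libraries, and TPM, which are also divided by length, between genes. The tissue was atrial by its markers, with 6 atrial muscle genes summing to 83542 to 96470 TPM in het and 110051 to 117008 TPM in WT libraries. In bulk tissue, fewer cells of a type and less RNA per cell cannot be told apart.

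Cardiac nerves are bundles of sympathetic, parasympathetic and sensory axons wrapped by Schwann cells, the glia of peripheral nerve. Sox10 is the transcription factor that sets and keeps the Schwann cell fate. Sympathetic neurons make noradrenaline from tyrosine by way of tyrosine hydroxylase (Th) and dopamine beta-hydroxylase (Dbh). Their cell bodies lie mostly in ganglia outside the heart and their axons hold little mRNA, whereas ganglia of the cardiac plexus lie on the atria.

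The start regions of Th and Dbh are shown because these enzymes belong to 1 pathway, with Ddc acting between them, while their counts ran apart in the libraries. Both windows are from RefSeq on GRCm38.p6, another build than the submitters' GRCm39, and cover 250 bases before to 50 bases after the start, 5′ to 3′ along the gene. Th lies at chr7:142899946-142900245 on the minus strand and Dbh at chr2:27165257-27165556 on the plus strand. Capitals mark TGACGTCA, the cAMP response element, and CAATTAG, which holds the homeodomain core and was chosen after both windows had been read.
Th: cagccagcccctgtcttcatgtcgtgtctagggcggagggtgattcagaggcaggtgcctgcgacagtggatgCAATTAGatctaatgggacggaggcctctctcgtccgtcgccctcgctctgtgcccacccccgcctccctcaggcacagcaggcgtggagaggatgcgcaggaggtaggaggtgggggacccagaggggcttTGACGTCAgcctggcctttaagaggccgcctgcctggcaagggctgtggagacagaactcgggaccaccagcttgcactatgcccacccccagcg
Dbh: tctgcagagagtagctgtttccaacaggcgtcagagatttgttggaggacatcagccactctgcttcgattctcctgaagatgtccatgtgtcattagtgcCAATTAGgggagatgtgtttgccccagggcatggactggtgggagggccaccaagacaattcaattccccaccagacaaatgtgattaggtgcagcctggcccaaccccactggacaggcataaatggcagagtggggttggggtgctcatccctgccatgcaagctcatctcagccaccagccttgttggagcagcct
TGACGTCA began 45 bases before the Th start and was not among the letters of the Dbh window. It occurred in 1.79% of 32851 promoter windows. CAATTAG began 177 bases before the start in Th and 149 bases before it in Dbh, and 1.98% of windows held it on either strand. The SOX motif ACAAAG, found in 18.7% of windows, and the paired homeodomain palindrome, found in 0.265%, were searched on both strands too. Neither was in the windows of Th, Dbh, S100b or Uchl1, the 4 of the 8 genes matched in the table. These matches describe letters only.

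Measured per length over all 5 libraries, the order of levels was Mbp (mean of 15.7 TPM), Uchl1 (13.8), Cdh19 (2.31), Dbh (2.03), S100b (1.74), Sox10 (1.67), Kcna1 (1.21) and Th (0.636). Uchl1 lay above Cdh19, and Kcna1 above Th, in 5 of 5 libraries. The other neighbours in that order changed places in at least 1 library, so Cdh19, Dbh, S100b and Sox10 had no fixed order among themselves. Uchl1 exceeded Mbp in het 5 only. A short transcript described further on carries most of the Uchl1 TPM in het 5 and het 6, and so weighs on its mean and place.

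Sox10 stood at 3.70, 2.82 and 4.85 CPM in het 5, 6 and 7, against 4.38 and 3.03 CPM in WT 7 and 8. The groups overlapped, with het 7 highest and het 6 lowest. Its log2 fold change of het against WT was 0.03 (SE 0.32, edgeR quasi-likelihood adjusted p = 0.967), smaller than the spread between replicates, and -0.20 without het 7. It was 0.58 with Y-linked expression as a covariate, which mainly sets WT 7 apart, and 0.32 with trends on length and GC content removed.

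S100b encodes a calcium-binding protein that is abundant in Schwann cells and present in adipocytes too. It had 1.36, 1.74 and 2.38 CPM in het 5, 6 and 7, against 2.33 and 2.16 CPM in WT 7 and 8. Het 5 and het 6 lay below both WT libraries and het 7 above them, so the groups overlapped, and the log2 fold change was -0.29 (SE 0.38, edgeR adjusted p = 0.684). The 9 adipocyte markers, led by Fabp4 and Cfd, summed to 246, 326 and 703 TPM in het 5, 6 and 7, against 321 and 660 TPM in WT 7 and 8. Het 5 was lowest and het 7 highest for both, and the part of fat cells in the S100b values was not tested.

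Mbp, myelin basic protein, compacts the myelin sheath. It reached 57.4, 43.0 and 48.5 CPM in het 5, 6 and 7, against 36.5 and 40.8 CPM in WT 7 and 8. Each het library lay above both WT libraries. The log2 fold change between the groups was 0.36 (SE 0.15), which did not pass the test (edgeR adjusted p = 0.151). Het libraries averaged 49.6 ± 7.24 CPM (SD, n = 3) and WT libraries 38.7 ± 3.0 CPM (SD, n = 2).

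Cdh19 is a cadherin of Schwann cells and their precursors, one of the genes picked for level. It had 10.4, 10.9 and 8.36 CPM in het 5, 6 and 7, against 7.12 and 4.73 CPM in WT 7 and 8. The groups did not overlap, and the log2 fold change was 0.72 (SE 0.24). It was 0.48 without WT 8 and 1.16 with Y-linked expression as a covariate. Kcna1 encodes Kv1.1, a potassium channel of myelinated axons that mouse atrial muscle cells are also known to make, and was likewise picked for level. It had 6.23, 4.96 and 5.33 CPM in het 5, 6 and 7, against 4.05 and 2.04 CPM in WT 7 and 8. Its log2 fold change was 0.83 (SE 0.31), and 0.46 without WT 8, the library with the lowest value, in a fit with 1 WT library. Without WT 7 it was 1.43, and with the Y-linked covariate 1.78. Here and below, that covariate mainly sets WT 7 apart, so it is no separate check from leaving WT 7 out.

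Cdh19, Kcna1 and Mbp were set against Sox10 by ratios of expected counts. These are not divided by length, so they compare libraries and not the levels of genes. By TPM Sox10 lay above Kcna1 in 4 of 5 libraries. Cdh19 had 2.80, 3.87 and 1.72 expected counts per count of Sox10 in het 5, 6 and 7, against 1.63 and 1.56 in WT 7 and 8. For Kcna1 that ratio was 1.68, 1.76 and 1.10 in het, against 0.925 and 0.673 in WT. Both ratios were higher in every het than in every WT library, although both genes were picked for level, so this too is a description. The ratio of Mbp to Sox10 overlapped, at 15.5, 15.3 and 9.99 in het and 8.35 and 13.4 in WT.

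**Figure D1:**
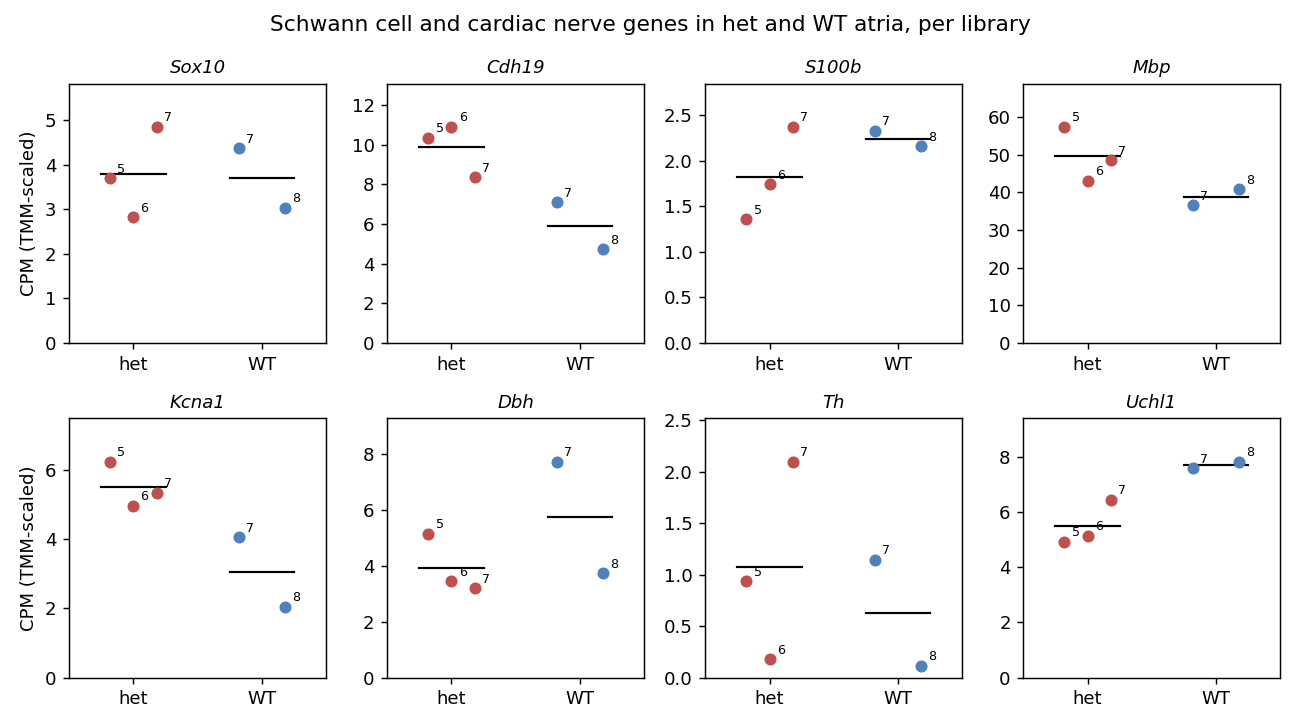
CPM of the 8 genes in each library (points, numbered by replicate) with the group mean (horizontal line), het left of WT; the vertical axes start at 0 and differ between panels. Groups do not overlap for Mbp and Uchl1, nor for Cdh19 and Kcna1, which were picked for level. Among all tested genes 42.3% do not overlap. Th spans 0.117 to 2.10 CPM.

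Mbp counts in these atria came mostly from transcripts of the upstream start. The Mbp locus has a downstream start that gives the classic myelin proteins and an upstream one that gives golli proteins, found in neurons and immune cells as well as myelinating glia. Of 16 annotated transcripts, the 4 with starts within 10 kb of the most upstream one formed the upstream group. It held 64.5%, 70.2% and 73.7% of Mbp expected counts in het 5, 6 and 7, against 60.5% and 73.1% in WT 7 and 8. The means were 69.5% ± 4.61 in het (SD, n = 3) and 66.8% ± 8.90 in WT (SD, n = 2), and the difference was within the spread between replicates (exact two-sided permutation p = 0.6, where 0.2 is the smallest that 10 splits allow). By TPM the upstream share was lower, 45.9% ± 4.90 in het and 44.4% ± 9.93 in WT, and the main upstream transcript is the longest of the 16.

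Split in this way, after the transcript values had been seen, upstream Mbp had 37.0, 30.2 and 35.7 CPM in het 5, 6 and 7, against 22.1 and 29.8 CPM in WT 7 and 8. Downstream Mbp had 20.3, 12.8 and 12.8 CPM in het, against 14.4 and 11 CPM in WT. The upstream group thus did not overlap, by a narrow margin between het 6 and WT 8, and the downstream group did. Most of the upstream counts fell to Mbp-205 (ENSMUST00000091789, 4797 bases), with 62.8%, 67.7% and 70.8% of Mbp counts in het and 57.3% and 67.8% in WT. In the annotation its last exon covers the first exon of the downstream transcripts and runs into the intron after it. Unspliced downstream RNA would be counted there, and its part in the share was not tested.

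**Figure D2:**
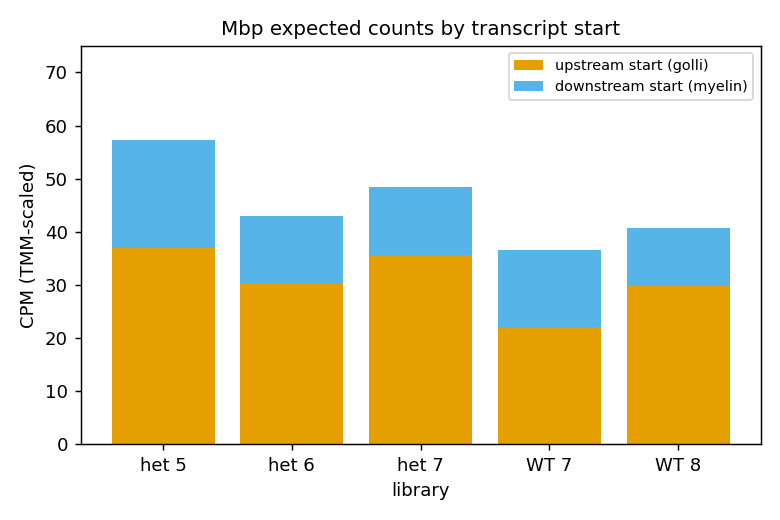
Mbp CPM in each library, stacked by transcript start: upstream (golli) below and downstream (myelin) above. The upstream part makes up 60.5% to 73.7% of each bar and is lowest in WT 7 at 22.1 CPM.

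Among the neuronal genes, Dbh, the last enzyme of noradrenaline synthesis, had 5.16, 3.44 and 3.20 CPM in het 5, 6 and 7, against 7.73 and 3.73 CPM in WT 7 and 8. WT 7 was highest and the groups overlapped. The log2 fold change was -0.56 (SE 0.34, edgeR adjusted p = 0.337), and it was 0.07 without WT 7, in a fit with 1 WT library, and 0.56 with Y-linked expression as a covariate.

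Th, the rate-limiting enzyme of catecholamine synthesis, was the most variable of the 8 genes, with 20, 4 and 61 expected counts in het 5, 6 and 7, against 28 and 2 in WT 7 and 8. The exact 95% Poisson intervals, which cover counting error only, were 46.7 to 78.4 for het 7, 1.09 to 10.2 for het 6, 18.6 to 40.5 for WT 7 and 0.242 to 7.22 for WT 8. Each group therefore held a library with ample and a library with very few Th counts, beyond counting error. On the CPM scale the highest was 18 times the lowest, against 1.57 to 3.05 times for the other 7 genes. The log2 fold change of 0.71 had an SE of 1.08 (edgeR adjusted p = 0.741), and turned to -0.25 without het 7 and -0.06 without WT 8. It was 3.17 without WT 7 and 4.33 with Y-linked expression as a covariate.

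Dbh did not follow Th. There were 5.50, 19.2 and 1.52 Dbh counts per Th count in het 5, 6 and 7, against 6.75 and 32 in WT 7 and 8. Genes of nerve cell bodies and nerve endings were looked at after these values had been seen. Prph, a filament of peripheral neurons, had 16, 9 and 54 expected counts in het 5, 6 and 7, against 20 and 6 in WT 7 and 8. Isl1, a transcription factor of autonomic neurons and of the sinus node, had 2, 0 and 67 in het, against 24 and 11 in WT. Like Th, both were highest in het 7, and next in WT 7. Other neuronal genes of the lists ran differently. Tubb3, a tubulin of neurons, had 9, 19 and 43 counts in het, against 56 and 30 in WT. In CPM it had 0.422, 0.85 and 1.48 in het, against 2.29 and 1.75 in WT, so its groups did not overlap. Its log2 fold change of -1.12 (SE 0.52) did not pass the test (edgeR adjusted p = 0.201). Gap43, a growth cone protein gene, had 19, 1 and 15 counts in het, against 32 and 14 in WT. Snap25, of the synaptic fusion machinery, was highest in het 5, with 69, 21 and 43 in het, against 45 and 25 in WT. Slc6a2, the noradrenaline transporter, had another pattern, with 1.92, 2.15 and 2.37 CPM in het, against 0.982 and 0.583 CPM in WT. Its groups did not overlap, and its log2 fold change of 1.43 (SE 0.44) did not pass the test (edgeR adjusted p = 0.0706). Pnmt, which turns noradrenaline into adrenaline, went the other way, with 1.45, 1.48 and 1.93 CPM in het, against 5.11 and 2.28 CPM in WT. Its groups did not overlap either, and its log2 fold change of -1.20 (SE 0.39) did not pass the test (edgeR adjusted p = 0.0804).

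Uchl1, a ubiquitin hydrolase abundant in neurons (PGP9.5), had 4.92, 5.14 and 6.44 CPM in het 5, 6 and 7, against 7.57 and 7.82 CPM in WT 7 and 8. Each het library lay below both WT libraries, at a log2 fold change of -0.48 (SE 0.23), which did not pass the test (edgeR adjusted p = 0.212). Uchl1 is short, with a length of 992 bases, and fold changes rose with length across the tested genes (Spearman rho of 0.448, a description across genes). With trends on length and GC content removed, its log2 fold change was -0.08. By TPM the order of the het libraries was the reverse, at 24.7, 13.9 and 9.21 TPM in het 5, 6 and 7, against 10.2 and 10.8 TPM in WT 7 and 8. A retained-intron transcript of 228 bases, Uchl1-204, took 3.67 of the 105 expected counts of het 5 and 75.8% of its Uchl1 TPM. In het 6 it took 1 count and 50.9% of the Uchl1 TPM, and in WT 8 it took 14.2%. Most of the Uchl1 TPM of het 5 and het 6 thus rests on fewer than 4 reads in each.

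Transcript use was compared for the 5 genes with at least 2 transcripts above 0 and a mean of at least 50 expected counts. The leading transcript held 98.8% ± 1.71 of Sox10 counts in het (SD, n = 3), while in WT it held 99.0% in WT 7 and 0% in WT 8. In WT 8 the 52 Sox10 counts were assigned mostly to ENSMUST00000230532 (48 counts), which differs from it at its start in the annotation. The other leading shares ran from 92.3% to 98.6% in het and 96.3% to 100% in WT for Kcna1, and from 79.6% to 90.6% in het and 74.5% to 88.7% in WT for Uchl1. For Cdh19 they were 99.2% or more in every library. None of the 5 passed the exact two-sided permutation test (adjusted p of 0.75 to 1.0), which cannot go below p = 0.2. Dbh and S100b had 1 transcript above 0, and Th counts went wholly to Th-201 in het 5, het 7 and WT 7 and to Th-204, annotated as a target of nonsense-mediated decay, in het 6 and WT 8, the libraries with 4 and 2 counts.

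Of the 6 genes that were not picked for level, 0 passed the edgeR test at an adjusted p under 0.05, where 5.64% of all 16412 tested genes passed (2.99% higher and 2.66% lower). At an unadjusted p under 0.05 there was 1 of the 6 (Mbp), against 24.7% of all genes, and the same number with DESeq2 and with limma-voom, which also called 0. Het and WT libraries did not overlap in 2 of the 6 (Mbp and Uchl1), against 42.3% of all genes. These shares are no higher than the background.

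**Figure D3:**
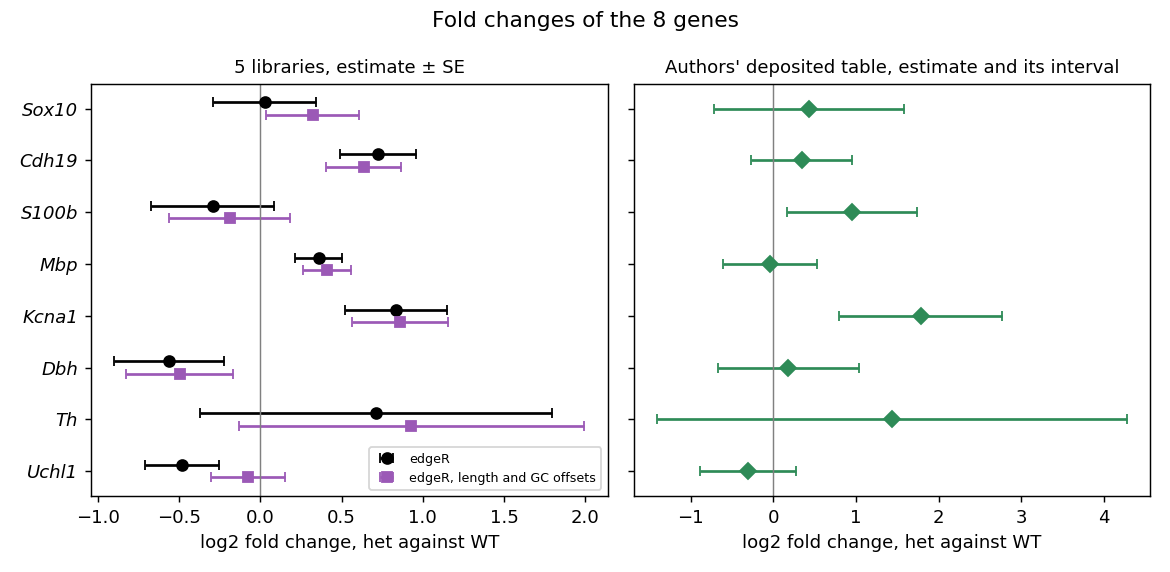
Log2 fold changes of het against WT for the 8 genes. Left, edgeR estimates ± SE from the 5 libraries without (circles) and with (squares) trends on length and GC content removed; right, estimates with their interval from the authors' deposited table. Kcna1, picked for its level, lies right of 0 in both panels, which may share libraries. Uchl1 moves to -0.08 with trends removed.

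The authors' deposited table covers 14927 genes and gives 0 of them at an adjusted p under 0.05, and 5.6% at an unadjusted p under 0.05. Which animals entered it is not stated in the sources used here, so the libraries above may be among them and it is no independent check. In the authors' deposited table Kcna1 had a log2 fold change of 1.78 (interval 0.80 to 2.77), given as a description because the gene was picked for its level. S100b had 0.95 (interval 0.16 to 1.74, adjusted p = 0.531) in the authors' deposited table, a sign opposite to that in the 5 libraries. Mbp had -0.04 (interval -0.61 to 0.53) in the authors' deposited table, also opposite in sign. Cdh19 (0.34), Sox10 (0.43), Th (1.44) and Uchl1 (-0.30) had the sign seen in the 5 libraries, and Dbh (0.18) did not.

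Beyond the 8 genes, 6 lists of Schwann cell and nerve genes held 129 genes, of which 99 passed the expression filter. In these lists 1 gene was higher and 1 lower, 2.02% of those tested, against 5.64% of all genes. The median log2 fold change of all tested genes was -0.001.

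Of 27 other Schwann cell genes, 24 were tested, and 1 was higher and 0 lower. Gpm6b, a membrane proteolipid, had 34.8, 49.0 and 33.0 CPM in het 5, 6 and 7, against 19.3 and 21.8 CPM in WT 7 and 8. Gpm6b rose, with a log2 fold change of 0.92 (SE 0.18, edgeR adjusted p = 0.027), and stood at 0.68 (adjusted p = 0.0752) with trends on length and GC content removed. The list median was 0.19, and 0.10 with those trends removed. The list holds genes that heart muscle uses as well, such as Cryab.

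Of 21 myelin genes 14 were tested and 0 were called, with a median of 0.01. The most abundant, Cd9, a tetraspanin, and Pmp22, a protein of compact myelin, are also made by many other cells. Cd9 had a log2 fold change of 0.23 (SE 0.13, edgeR adjusted p = 0.288) and Pmp22 0.05 (SE 0.12, edgeR adjusted p = 0.852).

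Noradrenergic genes had 0 calls among 14 tested of 20 (median -0.11). Hand2, a transcription factor of sympathetic neurons and of heart, had a log2 fold change of -0.31 (SE 0.15, edgeR adjusted p = 0.219). Of 15 cholinergic and peptidergic genes 4 were tested and 0 called. Ache, acetylcholinesterase, stood at -0.33 (SE 0.20) and Calcb, a sensory neuropeptide gene, at -0.84 (SE 0.64), with edgeR adjusted p of 0.356 and 0.455. The galanin gene Gal had 0 counts in each library. Axonal and pan-neuronal genes had 0 calls among 23 tested of 25 (median 0.02, 12 positive and 11 negative). At an unadjusted edgeR p under 0.05, 0 of them were higher and 6 lower, where 24.7% of all genes passed in either direction. Ndrg4, which heart muscle also uses, stood at -0.31 (SE 0.14) and the synuclein gene Sncg at -0.57 (SE 0.34), with edgeR adjusted p of 0.201 and 0.337.

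Of 21 genes for nerve growth and guidance signals, 20 were tested, 0 were higher and 1 was lower. Nrtn encodes neurturin, a growth factor that parasympathetic neurons of the mouse heart depend on. It had 66.9, 50.7 and 68.1 CPM in het 5, 6 and 7, against 168 and 112 CPM in WT 7 and 8. It fell by 1.18 on the log2 scale (SE 0.19, edgeR adjusted p = 0.0229), and stood at -0.52 (adjusted p = 0.0692) with trends on length and GC content removed. The call of Gpm6b was lost without any 1 of the 5 libraries, and that of Nrtn without any 1 of the 3 het libraries.

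**Figure D4:**
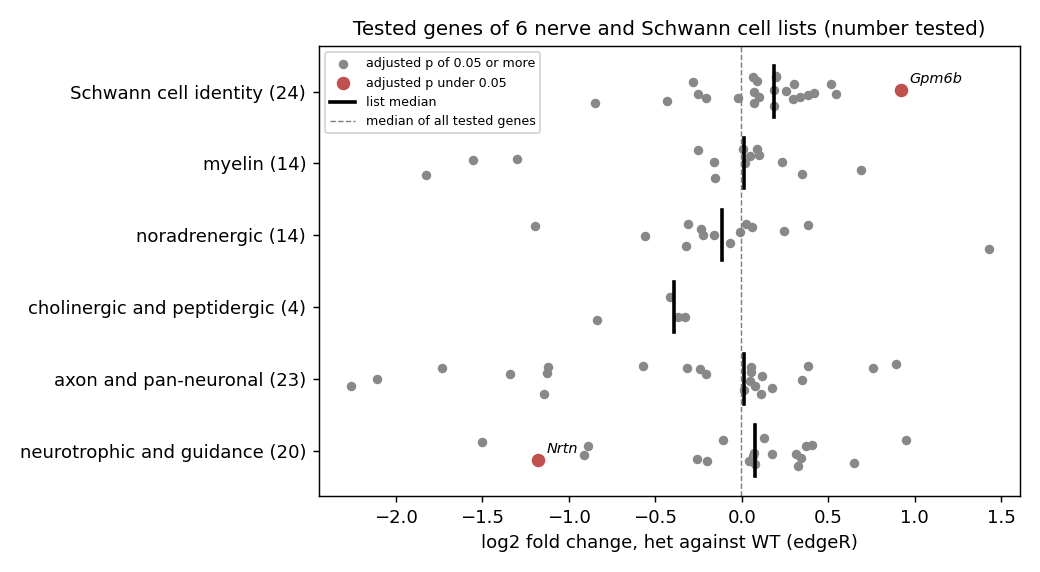
Log2 fold changes (edgeR, het against WT) of the tested genes of 6 lists; each point is a gene, the black bar the list median, the dashed line the median of all tested genes, and red marks an adjusted p under 0.05. Gpm6b (0.92) and Nrtn (-1.18) are the red points.

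Markers of other cells that share genes with Schwann cells were read beside these results. Of 7 melanocyte markers 5 were tested and 0 called, and they summed to 89.5 to 97.0 TPM in het and 88.8 to 130 TPM in WT libraries. Most of this was Mlana, at 73.7 to 84.1 TPM in het and 77.0 to 119 TPM in WT, with Mitf next, while the pigment enzyme gene Tyr had 2 to 6 expected counts in het and 0 to 7 in WT. Of 7 oligodendrocyte markers, the myelin glia of the brain, 2 were tested (Mobp and Cldn11) and 0 called, at 1.38 to 6.55 TPM in all in het and 1.03 to 2.02 in WT. Opalin was at 0 in all libraries and Mog had 0 to 2 counts. Of 6 chondrocyte markers, only Sox9 was tested and was not called (2.55 to 3.36 TPM in all in het, 1.68 to 2.75 in WT).

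Adipocyte markers had 0 calls of 9, endothelial markers, led by Pecam1 and Cdh5, 0 of 4 and thymus and lung markers, with Ptcra and Scgb1a1 highest, 0 tested of 4. Fibroblast markers had 1 higher of 6 (Lum, 0.50) and smooth muscle markers 1 lower of 4 (Tagln, -0.93). Atrial muscle markers had 2 lower of 6 (Myl4, -0.68, and Nppa, -0.64) and skeletal muscle markers 1 lower of 3 tested (Ckm, -0.70). With trends on length and GC content removed, Tagln stayed called (-0.79, edgeR adjusted p = 0.0485). Lum (0.41), Myl4 (-0.35), Nppa (-0.28) and Ckm (-0.51) did not, at edgeR adjusted p of 0.149 to 0.491. Ckm, at a mean of 471 TPM, is a gene of heart muscle too. The skeletal myosin genes Myh1, Myh2 and Myh4 had 0 to 6 expected counts and were not tested. The summed fibroblast markers, like Cdh19, were higher in each het than in each WT library, at 1018 to 1081 TPM in het and 594 to 902 TPM in WT libraries. Dcn made up most of that sum, and its CPM overlapped between the groups (803 to 1010 in het, 605 to 824 in WT). Of the 6 genes 4 had a positive and 2 a negative log2 fold change (Col1a1, -0.24, and Col1a2, -0.22). Their part in the Cdh19 values was not tested.

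Genes whose profile over the 5 libraries lay closest to a nerve gene were found among 12950 genes by the root mean square difference of log2 CPM, each gene centred on its mean. For Sox10 these were Col6a1 (0.04), Mrc2 (0.05) and Prdm16 (0.06). Mrc2, the gene of the altered receptor, had 37.9, 31.0 and 46.7 CPM in het 5, 6 and 7, against 43.5 and 34.1 CPM in WT 7 and 8. For Mbp they were Rhoj (0.03), Prag1 (0.04) and Socs7 (0.05), and for Dbh Enkd1 (0.07), Slc13a4 (0.09) and Dusp26 (0.10). For Th the nearest genes lay farther off, namely Scube1 (0.31), Mcpt4 (0.35) and Lonrf3 (0.36), against a range of 2.08 for Th itself. With 5 libraries and so many candidates, close profiles are to be had for many genes.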

How the data were processed

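Stranded polyA libraries of atria were compared in 3 het and 2 WT samples, grouped by title, each library holding a pair of RNA fractions combined, per the labels' protocols. Per the submitters' processing notes, the build was GRCm39 and the tools included STAR, RSEM, edgeR and limma, with versions not given in the sources used here. The deposited RSEM tables hold expected counts per gene and transcript, not normalized, and TPM values that the authors scaled to length and library total, per the file headers. The transcript tables also give the authors' percent of each gene's TPM per transcript. The authors' deposited table gives log2 fold changes with intervals, a moderated t score and p-values. Its t is 0 where the fold is small, as in a test against a minimum fold. The length column, in bases, comes from the deposited gene tables.

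Expected counts were rounded, filtered with edgeR's default rule (16412 of 57186 genes), scaled by TMM and tested by quasi-likelihood in edgeR, dispersions being robust, with Benjamini-Hochberg adjustment over all tested genes, at a threshold of 0.05. SE is the absolute log2 fold change over the square root of F. CPM are TMM-scaled. Shares were compared by exact two-sided permutation of 5 libraries. The smallest p is then 0.2. Depths were 17784601 to 28353091 counts.

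The genes and lists were chosen with earlier results of these data known. Text names all 8 genes, up to 4 called genes of each list (else the 2 of highest TPM) and the 3 nearest profiles of Mbp, Sox10, Th and Dbh (mean of at least 1 CPM, pseudocount of 0.5). Symbols, from the authors' table and a reference list of IDs, matched 52063 of 57186 genes. GENCODE M21, on another build, served for transcript names and structure only. Slc6a2, Pnmt, Prph, Isl1, Tubb3, Gap43, Snap25, Cryab and the markers named beyond this rule were chosen after their values were seen. Some genes that the rule names are not reported here. GC content was known for 98.4% of tested genes. Alternatives were each library left out, offsets for trends on length and GC content per library (mgcv), a Y-linked covariate, DESeq2, limma-voom, other filters or scalings, and limma-trend on TPM with pseudocounts of 1 or 0.1 before log2. The code was tested on simulated data. The p-values measure the spread between these samples, which may be partly technical. Versions were DESeq2 1.42.0, edgeR 4.0.16, mgcv 1.9.3, limma 3.58.1 and R 4.3.3.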

Additional observations from a re-analysis of the deposited data

How the results depend on the processing

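The fit called 0 of the 8 genes under 16 of 17 alternatives, and 1 with every gene with a count tested (Cdh19, which was picked for its level, so this is no test of it). Several of these alternatives called few genes over the whole table, such as 8 by log2(TPM + 1) and 20 with length and GC trends removed. There, 0 of the 8 says nothing about stability. As a description, Cdh19 ranged from 0.48 without WT 8 to 1.16 with the Y-linked covariate. Kcna1 ranged from 0.46 without WT 8 to 1.78 with that covariate. Of 135 fold changes of single genes under alternatives, 125 kept their sign and side of the threshold. That tally includes Cdh19 and Kcna1, picked for level, and the settings that called few genes, so it is no measure of stability. Sox10 turned to -0.020 with upper-quartile scaling. With 1 library left out it ranged from -0.20 (without het 7, and -0.19 without WT 8) to 0.33 (without WT 7). It was 0.58 with the Y-linked covariate and 0.32 with length and GC trends removed. Dbh turned to 0.56 with the Y-linked covariate and ranged from -0.97 to 0.072 (without WT 7), Th ranged from -0.25 (without het 7; -0.06 without WT 8) to 3.17 (without WT 7) and was 4.33 with the Y-linked covariate, and Uchl1 turned to 0.46 and 0.48 by log2(TPM + 1) and log2(TPM + 0.1), where the TPM of het 5 rests on a short transcript. The minimum of 1 CPM on average left Th untested. The median of all genes was 0.133 with log2(TPM + 0.1) and -0.141 with every gene with a count.

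Genes called over the whole table numbered 926 (490 higher, 436 lower; 795 and 391 by library size alone, 327 and 568 with upper-quartile scaling), against 1647 with DESeq2, 2211 with every gene with a count, 8 and 22 by log2(TPM + 1) and log2(TPM + 0.1), 20 with length and GC trends removed, 23 with length alone removed, 42 with the Y-linked covariate and 0 to 878 with 1 library left out (0 without het 7, 1 without het 5, 11 without het 6 and 394 without WT 7). Calls in the 6 lists numbered 2, against 8 with DESeq2, 10 with every gene with a count, 0 with both TPM scales, both trend removals and the Y-linked covariate, and 0 to 4 with 1 library left out (0 without any het library, 3 without WT 7 and 4 without WT 8). The cause was not tested. Fits without a WT library assume that the remaining one varies like the het libraries. With the Y-linked covariate, which mainly sets WT 7 apart, the comparison likewise rests mostly on WT 8.

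Differences in transcript share (het minus WT, percentage points) ranged with 1 library left out from -0.75 to 9.83 for Mbp-205, -3.66 to 8.93 for upstream Mbp, -0.27 to 0.31 for Cdh19, -0.16 to 98.8 for Sox10 and -3.29 to 10.90 for Uchl1. By TPM the Cdh19 difference was -0.038 (0.019 by counts) and that of Uchl1 -20.9 (3.80 by counts). No paired analysis was possible because het and WT share only the number 7.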
